A study of Rattus norvegicus with 3 samples.

Results

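Spiral ganglion neurons are described here as they were captured in single-cell libraries of the rat cochlear duct at postnatal days 1, 7 and 14 (P1, P7 and P14). They were chosen by UMIs (single counted RNA molecules) of 8 neuronal genes, Tubb3, Snap25, Nefl, Nefm, Elavl4, Stmn2, Syt1 and Prph. A barcode had to carry at least 3 UMIs of these genes in all and at least 40 of them per 10000 of its UMIs. This gave 529 neurons among 31108 kept barcodes, which had over 500 genes each and a mitochondrial share of UMIs under 25%. They comprised 501 of 13162 barcodes at P1, 17 of 12664 at P7 and 11 of 5282 at P14. No upper limit on genes was set, and 190 of the P1 neurons, 1 of the P7 neurons and 0 of the P14 neurons had 5000 genes or more.

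Each stage was 1 library made from the pooled cochleae of 40 untreated Sprague-Dawley rats, so there were no replicates and no test, and a difference between stages cannot be told apart from one between libraries. The labels call the cells greater epithelial ridge cells, while the study describes the dissociated basal membrane. During its dissection the spiral ganglion was separated from the membrane, so the neurons are those that stayed with the tissue, and their number does not measure the ganglion. Red blood cells were lysed and dead cells removed before capture. Levels are UMIs summed over barcodes and scaled to counts per 1000000 UMIs (CPM), ranges in parentheses are exact 95% intervals, and both these and the limit that a count of 0 allows (3 UMIs) cover counting error only. They do not cover the spread between animals or cells.

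Spiral ganglion neurons are the bipolar first neurons of the auditory pathway. Their peripheral processes end on hair cells and their central axons form the auditory part of the eighth nerve. Type I neurons, the large majority, are myelinated and contact inner hair cells through glutamatergic ribbon synapses, and type II neurons are thin, unmyelinated and reach outer hair cells. They descend from the otic placode through Neurog1 and Neurod1, express Gata3, Isl1 and Prox1 as they differentiate, depend on the neurotrophin receptors Ntrk2 and Ntrk3, and acquire fast potassium and sodium channels as hearing begins.

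The neurons formed 3.81% (3.49 to 4.15) of the kept barcodes at P1, 0.134% (0.0782 to 0.215) at P7 and 0.208% (0.104 to 0.372) at P14. They held 12431557 UMIs at P1, 116958 at P7 and 75615 at P14, so a gene with no UMI could lie at up to 0.241, 25.7 and 39.7 CPM. The median P1 neuron had 24070.0 UMIs (786 to 65587) and 4791 genes, against 6546 UMIs and 2161 genes in the other P1 barcodes. At P7 the median neuron had 2928 UMIs against 6904, and at P14 5841 UMIs against 1614. P1 neurons were thus deep for their library, and 190 of the 383 kept barcodes with 5000 genes or more were neurons (49.6%). Mitochondrial genes took a median of 11.4%, 8.49% and 10.7% of the UMIs of neurons at P1, P7 and P14, against 6.72%, 8.51% and 3.75% in the other barcodes. A limit of 10% in place of 25% left 154 P1 neurons (1.38% of the barcodes then kept) and 5 P14 neurons (0.0991%). The 3 libraries shared 60 barcode sequences between P1 and P7, 19 between P1 and P14 and 25 between P7 and P14, and none was a neuron in both libraries.

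The level of the 8 choosing genes per 10000 UMIs ran from 41.1 to 547 in P1 neurons, with a median of 87.8. The neuron nearest the threshold stood at 41.1 at P1, 45.2 at P7 and 42.0 at P14, and the nearest barcode left out stood at 39.6, 34.7 and 38.3. Between 20 and 40 lay 42 P1, 20 P7 and 9 P14 barcodes, while 95.55%, 97.95% and 96.57% of the other barcodes stood below 5. All 8 genes were found together in 259 of the 501 P1 neurons, 2 of the 17 P7 neurons and 2 of the 11 P14 neurons.

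**Figure D1:**
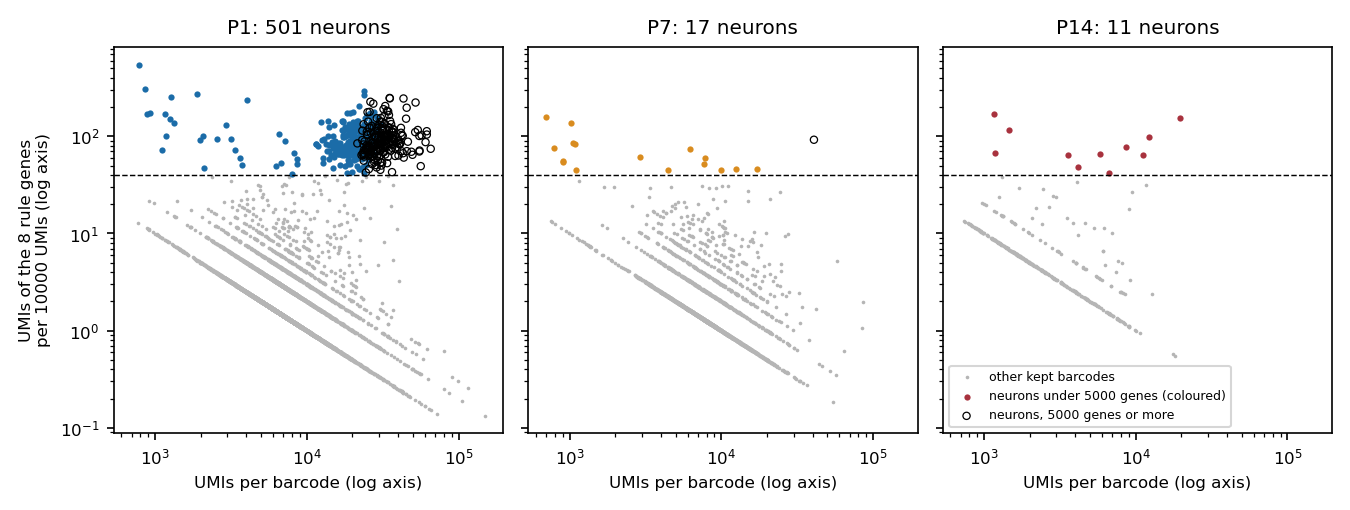
UMIs per barcode (log axis) against UMIs of the 8 choosing genes per 10000 UMIs (log axis) at P1, P7 and P14. Grey points are other barcodes with at least 1 of these UMIs, coloured points neurons under 5000 genes, open circles neurons with 5000 genes or more, and the dashed line the threshold of 40. The P1 neurons form a dense group around 24070.0 UMIs, while the 17 P7 and 11 P14 neurons are scattered, several near the line.

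To show the sequence in front of leading genes, the promoters of 6 genes high in P1 neurons are printed from RefSeq (rat assembly GRCr8), each 250 bases before to 50 after the start of the gene. Tubb3 is the neuronal beta-tubulin among the choosing genes, Stmn3 a relative of the microtubule regulator Stmn2, Pvalb the calcium buffer parvalbumin, Snhg11 a long non-coding RNA host gene given as a marker, Ina the intermediate filament alpha-internexin and Isl1 a LIM homeodomain factor of sensory neurons. Capitals mark a match, on either strand, to the E-boxes CAGCTG or CAGATG, to the GATA site AGATAA or to the homeodomain site TAATTA, which do not overlap one another in these windows. The files use the older build rn6, so these positions are not theirs. Stmn2, Nefm, Nefh and Shox2 had no promoter entry.
Tubb3 (chr19:68365437-68365736, plus strand): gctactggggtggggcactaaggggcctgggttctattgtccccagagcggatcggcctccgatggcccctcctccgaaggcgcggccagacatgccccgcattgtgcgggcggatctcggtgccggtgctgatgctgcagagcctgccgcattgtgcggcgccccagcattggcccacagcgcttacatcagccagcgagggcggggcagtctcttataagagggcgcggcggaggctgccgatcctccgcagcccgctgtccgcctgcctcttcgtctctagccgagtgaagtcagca
Stmn3 (chr3:188802445-188802744, minus strand): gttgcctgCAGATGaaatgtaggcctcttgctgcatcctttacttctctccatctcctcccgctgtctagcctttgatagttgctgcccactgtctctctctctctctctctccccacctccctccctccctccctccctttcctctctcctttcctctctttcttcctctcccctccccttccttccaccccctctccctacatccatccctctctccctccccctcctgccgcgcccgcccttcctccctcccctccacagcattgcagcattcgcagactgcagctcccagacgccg
Pvalb (chr7:111666240-111666539, minus strand): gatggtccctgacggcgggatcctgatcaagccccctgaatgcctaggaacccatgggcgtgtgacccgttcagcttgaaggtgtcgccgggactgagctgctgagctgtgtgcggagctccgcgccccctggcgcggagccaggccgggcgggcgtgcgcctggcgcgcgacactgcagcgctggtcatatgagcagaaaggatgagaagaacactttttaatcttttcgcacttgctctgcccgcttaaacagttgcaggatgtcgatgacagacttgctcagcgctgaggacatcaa
Snhg11 (chr3:167451022-167451321, plus strand): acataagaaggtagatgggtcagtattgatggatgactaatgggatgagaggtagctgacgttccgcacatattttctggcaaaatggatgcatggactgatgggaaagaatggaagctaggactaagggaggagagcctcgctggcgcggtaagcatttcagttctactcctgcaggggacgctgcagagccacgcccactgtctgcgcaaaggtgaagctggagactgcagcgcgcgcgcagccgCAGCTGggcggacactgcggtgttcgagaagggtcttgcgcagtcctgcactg
Ina (chr1:255837879-255838178, plus strand): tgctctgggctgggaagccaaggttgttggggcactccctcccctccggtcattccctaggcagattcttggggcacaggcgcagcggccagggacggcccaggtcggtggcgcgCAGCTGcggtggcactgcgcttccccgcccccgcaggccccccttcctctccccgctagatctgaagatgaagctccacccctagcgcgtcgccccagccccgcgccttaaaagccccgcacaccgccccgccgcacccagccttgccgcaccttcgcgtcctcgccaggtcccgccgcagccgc
Isl1 (chr2:49823393-49823692, minus strand): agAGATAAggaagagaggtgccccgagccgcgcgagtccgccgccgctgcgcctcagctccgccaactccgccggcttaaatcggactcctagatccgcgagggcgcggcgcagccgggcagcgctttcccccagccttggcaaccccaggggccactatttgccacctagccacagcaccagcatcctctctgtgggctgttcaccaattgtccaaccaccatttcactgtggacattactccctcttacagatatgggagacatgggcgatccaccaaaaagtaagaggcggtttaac
CAGCTG stood in the Snhg11 and Ina windows, CAGATG in that of Stmn3 and AGATAA in that of Isl1, and the Tubb3 and Pvalb windows held none of the 4. Over all 33469 promoters CAGCTG was found in 15.1%, CAGATG in 16.6%, AGATAA in 11.6% and TAATTA in 5.36%. Of the 340 genes that were at least 4-fold higher in P1 neurons than in the other P1 barcodes (3.98% of those compared), 251 had a promoter entry, and 21.9%, 14.3%, 5.98% and 1.99% of those held the same motifs. A match is a run of letters and was not tested as a binding site.

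Among the choosing genes, Stmn2, a regulator of microtubules in growing axons, was at 3467 CPM in neurons (3434 to 3499.8) and 37.2 CPM in the other barcodes. In pairs of levels joined by against, here and in what follows, neurons come first and the other P1 barcodes second. The neurofilament subunits gave such pairs, with Nefm at 2118 against 27.3 CPM and Nefl at 831 against 11.1 CPM. Tubb3 was at 1652 against 15.6 CPM, Prph, an intermediate filament of peripheral neurons, at 871 against 13.2 CPM, and Elavl4, a neuronal RNA-binding protein, at 308 against 3.69 CPM. The release machinery gave Snap25, a SNARE protein, at 368 against 5.46 CPM and Syt1, the calcium sensor of release, at 40.7 against 1.46 CPM. Because these values chose the neurons they describe them and show nothing more. Of all kept P1 UMIs of these genes, between 77.6% (Syt1) and 93.0% (Tubb3) lay in the 501 neurons, which held 11.1% of the UMIs of all genes.

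Over all genes, 8532 had at least 10 CPM in neurons or in the other P1 barcodes and entered the comparison. With 10 CPM added to both levels, 340 of them (3.98%) were at least 4-fold higher in neurons and 182 (2.13%) at least 4-fold lower, and the 8 choosing genes were left out of these counts. Since the neurons were selected on neuronal genes, nothing is read from the counts, and those of the gene groups that follow are descriptions too. A gene that reached 10 CPM in neurons only has a ratio above 1 by construction. The medians of gene lists therefore describe the compared genes and nothing more. The 190 neurons with 5000 genes or more and the 311 below were compared over 7669 genes, of which 0 were 4-fold and 24 were 2-fold apart. All 24 were higher in the deeper neurons, and many mark other or dividing cells, with log2 ratios, picked after they were seen, of 1.6045 for Otor, 1.44 for the fibroblast gene Apod, 1.51 for the macrophage gene Lyz2, and 1.56, 1.44 and 1.43 for the cell division genes Cenpf, Mki67 and Top2a.

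The genes that led the P1 neurons were cytoskeletal, vesicular and secretory. Stmn3 (ENSRNOG00000013657), a relative of Stmn2, was at 2116 CPM in neurons (2090.5 to 2142) and 22.2 CPM in the other barcodes, a 95.2-fold ratio, and it was found in 99.6% of neurons. Pvalb (ENSRNOG00000006471), the calcium buffer parvalbumin, was at 1559 CPM in neurons (1537 to 1581) and 18.5 CPM in the other barcodes. Snhg11 (ENSRNOG00000036802) was at 1571 CPM in neurons (1549 to 1593) and 19.7 CPM in the other barcodes. Neurofilament heavy chain Nefh was at 1080.2 against 12.7 CPM, Ina at 964 against 10.7 CPM and the microtubule protein Mapt (tau) at 874 against 10.4 CPM. Gng3, a neuronal G-protein subunit, was at 847 against 11.7 CPM, and Ttc9b at 607 against 6.85 CPM. Sncg, the synuclein of sensory neurons, was at 4192 against 107 CPM, Rtn1, a reticulon of the neuronal endoplasmic reticulum, at 2439 against 59.5 CPM, and Rab3a, a vesicle GTPase, at 641 against 10.9 CPM. The granins Chga and Chgb stood at 328 against 3.56 CPM and 357 against 4.33 CPM, their partner Scg5 at 396 against 6.81 CPM, and Mllt11 at 752 against 16.9 CPM. Of the remaining genes, the kinesin Kif5a, an axonal motor, was at 493 against 9.10 CPM, the neuronal elongation factor Eef1a2 at 393 against 4.75 CPM and the growth-cone protein Crmp1 at 370.4 against 4.64 CPM. Shox2, a homeobox transcription factor, was at 330.0 against 3.12 CPM.

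**Figure D2:**
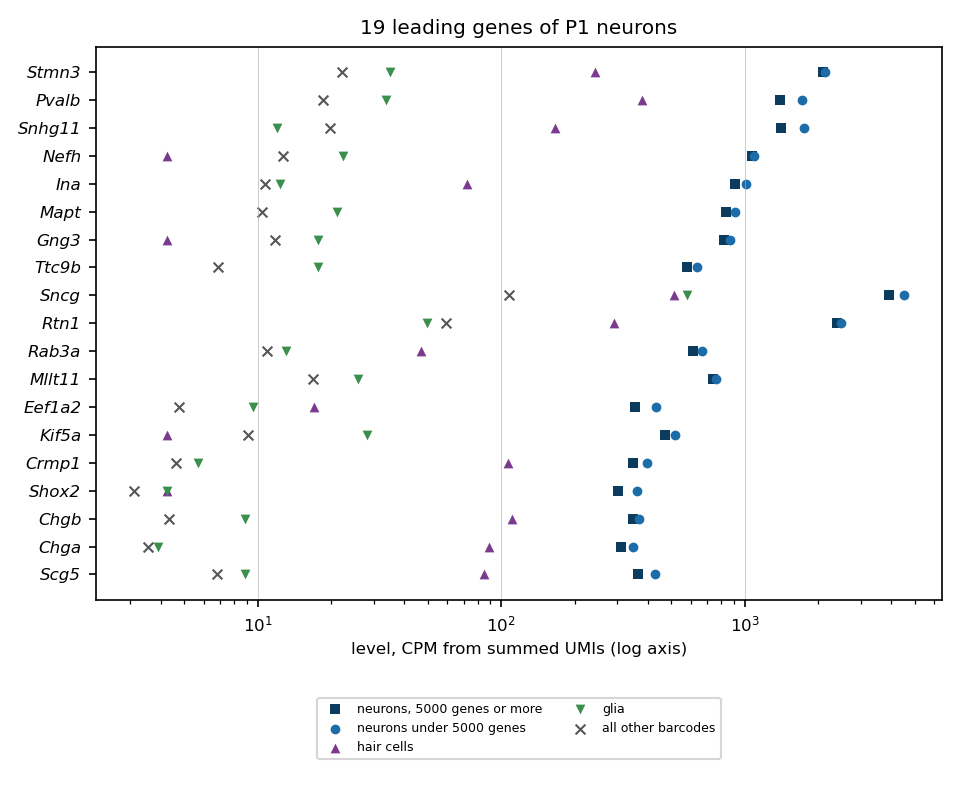
Level in CPM (log axis) of 19 of the 20 genes with the largest ratio of P1 neurons to other P1 barcodes, in neurons with 5000 genes or more (190), neurons under 5000 genes (311), hair cells (15), glia (549) and all other barcodes (12661). Squares and circles nearly coincide in each row, groups with 0 UMIs have no mark, and hair cells stand between neurons and the rest for Stmn3 and Pvalb.

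The lower end of the comparison held genes of connective tissue, matrix and blood, and those named here first were picked after their values were seen. Otor, a secreted protein abundant in this tissue, was at 398 CPM in neurons (387 to 409) and 6414 CPM in the other barcodes. Col9a1, a cartilage collagen, was at 84.1 against 1831 CPM, Mgp, a matrix inhibitor of calcification, at 44.2 against 918 CPM, and Igfbp2, which binds insulin-like growth factors, at 75.3 against 1414 CPM. Ccn3, a matricellular protein, was at 77.6 against 1940.2 CPM, Pou3f4, a factor of the otic mesenchyme, at 19.9 against 446 CPM, and the haemoglobin chain Hba-a2 at 21.1 against 938 CPM. Of 14 mesenchyme genes, 13 were compared and 12 were at least 4-fold lower. The same list summed to a median of 4.54 UMIs per 10000 in neurons and 121 in the other P1 barcodes. Of the 6 immune genes compared, 4 were at least 4-fold lower, with the complement gene C1qb at 1.69 against 89.5 CPM.

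General neuronal genes that took no part in the choice were read next. Of 23 such genes 21 were compared and 17 were at least 4-fold higher, with a median log2 ratio of 3.92 against -0.03 over all genes. Basp1 and Gap43, both proteins of growth cones, were at 2209 against 470.0 CPM and 667 against 117 CPM. The migration gene Dcx (doublecortin) was at 215 against 2.53 CPM, and the RNA-binding proteins Elavl2, Elavl3 and Rbfox1 at 221 against 5.20 CPM, 171 against 1.89 CPM and 205 against 3.14 CPM. Basp1, at 135 CPM in glia, and Gap43, at 348 CPM, were also found outside neurons, while Celf4 and Tagln3 were under 10 CPM in every group.

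**Figure D3:**
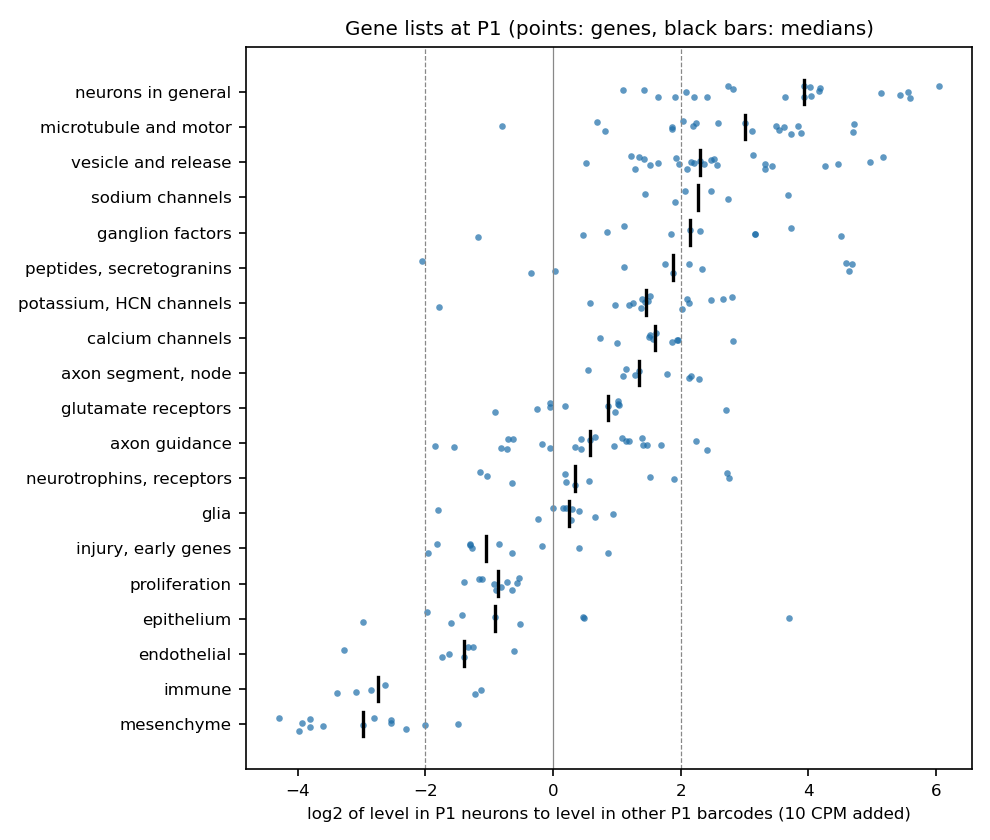
Log2 ratio of the level in P1 neurons to that in other P1 barcodes, with 10 CPM added, for the compared genes of 19 lists. Points are genes, black bars list medians and dashed lines the 4-fold limits: the medians run from 3.92 in general neuronal genes to -2.98 in mesenchyme genes.

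The label of the cells was checked against transcription factors. Of 18 factors of spiral ganglion neurons and their precursors found in the matrix, 11 were compared and 6 were at least 4-fold higher, with a median log2 ratio of 2.14. Isl1 (ENSRNOG00000012556) was at 403 CPM in neurons (392 to 414) and 8.22 CPM in the other barcodes, and Gata3 (ENSRNOG00000019336), a zinc-finger factor of the whole ganglion, at 262 CPM in neurons (253 to 271) and 20.4 CPM in the other barcodes. Prox1, a homeobox factor of the differentiating ganglion, was at 47.5 against 1.65 CPM, Tle4, a corepressor, at 159 against 8.89 CPM, and Runx1 at 52.6 against 4.17 CPM. Sox2, a factor of precursors and glia, was at 73.3 against 50.4 CPM with 386 CPM in glia. Of the precursor genes, Neurod1 was at 11.7 CPM (9.92 to 13.8) from 146 UMIs, while Neurog1 had 0 UMIs in 12431557. Runx3 and Hmx3, other factors looked for, also had 0 UMIs.

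Factors of other sensory and autonomic neurons were rarely found. Of 13 such genes 1 reached 10 CPM in either group, namely Pou4f2 at 30.6 CPM in neurons. Dbh and Hand2, of sympathetic neurons, and Mrgprd, of nociceptors, had 0 UMIs.

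Glia and hair cells of the P1 library served as near comparators. The 549 glia, chosen on 6 glial genes of which 5 were in the matrix, had a median of 3970.0 UMIs, and the 15 hair cells, chosen on 7 hair cell genes, had 15033. Stmn3 was at 35.1 CPM in glia and 243 CPM in hair cells, and Pvalb at 33.6 and 379 CPM. Isl1 was at 6.38 and 68.1 CPM. Gata3, at 388 CPM, was above the neuron level in hair cells and at 6.73 CPM in glia.

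Some genes known from hair cells were found in the neurons. Lhfpl5, a component of the mechanotransduction complex, was at 136 CPM in neurons, 5.21 CPM in the other barcodes and 1163 CPM in hair cells, and Espn, an actin-bundling protein of stereocilia, was at 91.2, 8.19 and 1133 CPM. Cib2 (ENSRNOG00000059834), a calcium-binding protein of the same complex, was at 141 CPM (134 to 148), 38.0 CPM and 2466 CPM, with 7.44 CPM in glia. Defining hair cell genes were at or near 0, since Gfi1, Myo7a, Slc26a5 and Tmc1 had 0 UMIs in the P1 neurons, Otof had 9, Pou4f3 had 16 and Slc17a8 had 11. Of 14 hair cell genes 3 were compared, and the 2 that were 4-fold higher were Lhfpl5 and Espn. Fgf10, a growth factor from the list of duct epithelium genes, was likewise at 185 against 4.99 CPM.

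Of the vesicular glutamate transporters, Slc17a7 and Slc17a6 were higher in the neurons than in the other barcodes. Slc17a8 is one of the 7 genes that chose the hair cells. Slc17a7, which encodes the vesicular glutamate transporter VGLUT1, was at 138 CPM in neurons (132 to 145) and 1.77 CPM in the other barcodes, and Slc17a6 (VGLUT2) at 40.6 CPM in neurons (37.2 to 44.3) and 0.481 CPM in the other barcodes. Slc17a8 (VGLUT3), the transporter of inner hair cells, was at 0.885 CPM in neurons. Its 141 CPM in hair cells follows from the choice of those cells. Genes of other transmitters were near 0, with 1 UMI of Gad1 and 3 of Gad2 (both for GABA synthesis), and 0 of Chat (acetylcholine synthesis) and Slc32a1 (the vesicular GABA transporter). Of 32 vesicle and release genes 25 were compared and 16 were at least 4-fold higher, with a median log2 ratio of 2.30. Cplx1 and Cplx2, the complexins, were at 298 against 4.02 CPM and 193 against 35.5 CPM, the synuclein Sncb at 230.2 against 2.57 CPM, the vesicle protein Sv2a at 187 against 8.23 CPM and the active-zone protein Pclo at 111 against 2.17 CPM. Syp (synaptophysin) was at 6.84 CPM and Unc13a, a priming factor, at 2.65 CPM, both under the limit for comparison.

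Secretory and calcium-binding genes were mixed. Of 20 peptide and secretory genes 11 were compared and 5 were at least 4-fold higher, which were Chga, Chgb, Scg5 and the granin relatives Vgf (35.9 against 0.511 CPM) and Scg2 (43.0 against 0.461 CPM). The opioid precursor Penk was at least 4-fold lower, at 1.21 against 36.7 CPM. Among calcium-binding proteins 13 of 14 were compared and 3 were 4-fold higher: Pvalb, the visinin-like Vsnl1 at 85.4 against 0.811 CPM and hippocalcin (Hpca) at 43.6 against 3.23 CPM. Calm2, a calmodulin gene, was at 3540.0 against 883 CPM, just under the 4-fold limit once 10 CPM was added to both. S100b, a glial protein, was at 160.3 against 584 CPM with 943 CPM in glia.

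Of 24 glutamate receptor genes 11 were compared and 1 was at least 4-fold higher, beside 3.98% of all genes, with a median log2 ratio of 0.86. That gene was Grin1, the obligatory NMDA receptor subunit, at 60.7 CPM in neurons (56.5 to 65.2) and 0.841 CPM in the other barcodes. The AMPA receptor subunits Gria2, Gria3 and Gria4 were at 62.3 against 25.4 CPM, 36.8 against 30.9 CPM and 48.9 against 60.4 CPM, and so less than 4-fold apart. Grin2b was at 12.4 against 13.1 CPM with 120.4 CPM in glia. Of 25 receptor genes for GABA, glycine and acetylcholine, 3 reached 10 CPM, namely Chrna4, Gabrg1 and Glrb at 14.1, 11.1 and 10.9 CPM, and none was 4-fold higher. P2rx3, an ATP-gated channel of sensory neurons that is expressed in the ganglion around birth, was at 89.0 CPM in neurons (83.8 to 94.4) and 1.35 CPM in the other barcodes.

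The compared sodium, potassium and calcium channel genes had median log2 ratios of 2.27, 1.46 and 1.59. Many of them reached 10 CPM in neurons only, so the filter itself favours positive medians, and these describe the compared genes alone. Of 13 sodium channel genes 6 were compared and 4 were at least 4-fold higher. Scn9a, which encodes Nav1.7, was at 240.3 CPM in neurons (232 to 249) and 9.59 CPM in the other barcodes, Scn2a (Nav1.2) at 59.8 against 2.52 CPM, Scn1a (Nav1.1) at 58.5 against 6.35 CPM and the accessory Scn3b at 65.8 against 1.37 CPM. Scn3a, an embryonic channel, was at 52.9 against 13.1 CPM, and Scn8a (Nav1.6), the channel of mature nodes, at 5.07 CPM, under the limit. Of 30 potassium and HCN channel genes 16 were compared and 6 were at least 4-fold higher, among them Kcna6 (66.8 against 2.11 CPM), Kcnc1 (64.4 against 0.701 CPM), Kcnq3 (37.0 against 0.711 CPM), Kcna1 (36.2 against 0.791 CPM) and Kcnh2 (35.8 against 1.30 CPM). Kcna1, Kcna2 and Kcna6 encode low-threshold delayed rectifiers and Kcnc1 a fast Kv3 channel. Kcna2 was at 20.7 against 1.72 CPM, and the pacemaker channels Hcn2, Hcn3 and Hcn4 were between 11.7 and 21.2 CPM. Of 15 calcium channel genes 10 were compared and 1, the auxiliary Cacnb4 at 93.4 against 4.60 CPM, was at least 4-fold higher with 10 CPM added. Under that limit were Cacnb3, another auxiliary subunit, at 164 against 38.0 CPM, and the pore subunits Cacna1h, a T-type channel, at 50.5 against 5.73 CPM, Cacna1d, an L-type channel, at 35.2 against 4.74 CPM, and Cacna1b, an N-type channel, at 21.0 against 0.891 CPM.

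Ion transport genes differed among themselves. Atp1b1, a subunit of the sodium pump, was at 1293 against 49.98 CPM. Slc12a5 (KCC2), the chloride extruder of central neurons, had 1 UMI in the P1 neurons, and Slc12a7 (KCC4) was at 107 against 5.89 CPM. Slc12a2 (NKCC1), which loads chloride, was at 41.1 against 51.0 CPM.

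Trophic receptors were found in most neurons without being confined to them. Ntrk2, the receptor for BDNF, was at 219 CPM in neurons (211 to 227) and 51.7 CPM in the other barcodes, and Ntrk3, the receptor for neurotrophin 3, at 71.2 CPM in neurons (66.6 to 76.0) and 18.4 CPM in the other barcodes. Ngfr, the low-affinity p75 receptor, was at 100.3 against 6.33 CPM and was 4-fold higher, as was Nrg1, the axonal neuregulin read by Schwann cells, at 63.0 against 0.992 CPM. Its receptor Erbb3 was at 33.8 CPM in neurons and 254 CPM in glia, which were chosen partly on Erbb3 itself. Bdnf was at 4.75 CPM in neurons and 285 CPM in hair cells, and Ntf3 at 1.05 CPM in neurons from 13 UMIs. Of 18 trophic genes 11 were compared and 2 were 4-fold higher, with a median log2 ratio of 0.34.

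Axon guidance genes were a mixture. Of 36 found, 23 were compared and 2 were at least 4-fold higher, Sema3e, a semaphorin, at 73.7 against 5.66 CPM and Epha5, an ephrin receptor, at 42.8 against 1.15 CPM. Epha4, a receptor in the sorting of auditory axons, was at 184 against 63.8 CPM, and the Slit receptor Robo2 at 118 against 29.8 CPM, while its relative Robo1 was at 2.82 against 12.6 CPM. Efna3, Robo3 and Unc5a had 0 UMIs in neurons.

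Of 19 genes of microtubule proteins and axonal motors, 14 were at least 4-fold higher, with a median log2 ratio of 3.0. Tuba1a, the alpha-tubulin of growing neurons, was at 5519.7 CPM in neurons (5479 to 5561) and 912 CPM in the other barcodes, Map1b, an axonal microtubule protein, at 3553 CPM in neurons (3520.0 to 3586) and 233 CPM in the other barcodes, and Tubb2b at 1959 against 127 CPM. Stmn1, the stathmin of dividing and immature cells, was at 2954 against 805 CPM and so under the 4-fold limit. Kif5b, the ubiquitous kinesin, was the one member with a negative log2 ratio (-0.81), while its neuronal relatives Kif5a and Kif5c were at 493 against 9.10 CPM and 428 against 27.7 CPM. At the axon initial segment, Ank3 (ankyrin G) was at 92.0 against 10.8 CPM and Nfasc (neurofascin) at 57.0 against 17.6 CPM. None of 10 compared genes of axon injury and the immediate early response was 4-fold higher, and the immediate early factors Jun, Fos and Egr1 were at 179.9 against 725 CPM, 734 against 1147 CPM and 230.0 against 579.5 CPM.

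To ask which ganglion subtypes the neurons resembled, the shares of neurons and others carrying a gene were set side by side after each barcode was reduced to 5000 UMIs, averaged over all possible draws. The median depth before this was 24070.0 UMIs in neurons and 6546 in others. It kept 480 neurons and 9318 other P1 barcodes and left out 21 and 3343 shallower ones. Isl1 was found in 83.5% (79.9 to 86.7) of neurons, or 95.8% without thinning, and 2.46% of others. Gata3 was found in 59.9% (55.5 to 64.4), or 87.4% unthinned, and 3.96%. These shares exceed those of the other barcodes, in which UMIs of free RNA cannot be told from those of the cell.

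Lypd1, which marks one class of type I neuron, was found in 48.6% (44.0 to 53.1), or 75.2% without thinning, and 4.88% of others. Runx1, of the same class, was found in 22.4% (18.8 to 26.5), or 54.1% unthinned, and 1.99%. Calb1 (calbindin), of a second class, was found in 7.45% (5.31 to 10.2), or 18.8% unthinned, and 2.30%, at 22.5 CPM in neurons and 3199 CPM in hair cells. Calb2 (calretinin), of the third class, was found in 0.876% (0.228 to 2.12) of neurons, or 2.99% unthinned, and 8.74% of others, so its share was lower in neurons than in the others. Among other genes thinned in this way, B3gat1 was found in 15.8% of neurons and 0.769% of others, and Rxrg in 9.81% and 4.49%. Grm8 was found in 6.86% and 1.08%, and Pcdh20 in 1.57% and 0.653%. Pou4f1 had 16 UMIs in all P1 neurons.

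The transmitter and trophic genes gave the same kind of share. Slc17a7 was found in 46.5% (41.9 to 51.0), or 83.2% without thinning, and 0.713% of others, and Slc17a6 in 14.9% (11.9 to 18.5), or 30.9% unthinned, and 0.218%. Ntrk2 was found in 64.9% (60.3 to 69.1), or 94.4% unthinned, and 19.6%, and Ntrk3 in 29.2% (25.1 to 33.5), or 74.9% unthinned, and 8.16%. Of the genes linked to type II neurons, Ngfr was found in 38.0% (33.8 to 42.6), or 81.6% unthinned, and 2.20%. Th (tyrosine hydroxylase) was found in 1.26% (0.460 to 2.70), or 4.79% unthinned, and 0.0171%, while Etv4, found in 6.11% (4.08 to 8.56), or 22.4% unthinned, was found in 18.8% of others. Other cells of the duct may hold Etv4 themselves, so that share is no measure of free RNA.

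Gata3 and Prph are known to be higher in type II than in type I neurons of the maturing ganglion, so the P1 neurons were read along their Gata3 level. After the 6 cells described further on were set aside, the 124 neurons with the highest Gata3 CPM (at least 395 CPM, or the top 25%) were set against the 371 below. This is a range and not a cell type, because 86 neurons lay within 20% of that limit, the median neuron was at 195 CPM and 57 neurons had no Gata3 UMI. Depth was similar, with medians of 25645.5 and 23788 UMIs. Of 7646 genes with at least 10 CPM in either set, 28 (0.366%) were at least 2-fold higher and 39 (0.51%) at least 2-fold lower in the high-Gata3 set, and the cells were ranked and compared on the same UMIs, so these counts are descriptions. Pairs of levels in the account of Gata3 give the high-Gata3 set first and the rest second.

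Prph was at 1129 against 689 CPM in the high-Gata3 set and the rest. It is one of the 8 choosing genes, which as a whole had medians of 101 and 82.4 UMIs per 10000 in the 2 sets, while the 23 other neuronal genes had 133.7 and 134.5. Genes picked after their values were seen for being furthest apart included Hip1, a clathrin adaptor, at 502 against 191 CPM, Ramp3, a receptor-modifying protein, at 159.9 against 48.3 CPM, and Gldn (gliomedin), a nodal adhesion protein, at 62.1 against 16.2 CPM. Lyz2, a lysozyme of macrophages, headed the list at 39.6 against 0.671 CPM, but only 2.42% of the upper cells had a UMI of it. On the other side stood Pyy, a gut peptide gene, at 11.0 against 135 CPM, Ppp1r14a, a phosphatase inhibitor, at 28.9 against 212 CPM, and Fxyd7, a regulator of the sodium pump, at 46.0 against 298 CPM.

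Subtype genes fell on both sides of the Gata3 range. Lypd1 was at 70.3 against 251 CPM, Runx1 at 12.8 against 67.3 CPM and Slc17a6 at 8.22 against 49.4 CPM, all lower in the high-Gata3 set. Pvalb, at 1036 against 1784 CPM, and Slc17a7, at 105 against 152 CPM, were also lower, both by less than 2-fold. Calb1 was higher at 40.2 against 15.9 CPM, as were Etv4 at 31.1 against 9.39 CPM, Th at 6.09 against 1.79 CPM and Ngfr at 126 against 90.6 CPM. Isl1 and Sox2 were level, at 418 against 404 CPM and 74.9 against 73.8 CPM, with intervals that overlap. With 10 CPM added, of 8 compared type I genes 0 were 2-fold higher and 2 were 2-fold lower (median log2 ratio -0.39). The median over all genes was -0.01. Calb1 is among the 8, and its log2 ratio with 10 CPM added, 0.956, was just under that limit. It was 1.54 without neurons high in genes of other cells, a setting described further on and added after the data were seen. Of 4 compared type II genes other than Gata3 1 was 2-fold higher, and the 4 include Prph, a choosing gene. Glial genes had medians of 32.0 and 33.1 UMIs per 10000 in the 2 sets and mesenchyme genes 3.89 and 4.85.

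The Gata3 range was also read cell by cell, on the same neurons and UMIs, so its order is not shown a second time. Hip1, Ppp1r14a and Lypd1 had already been seen in the division, and Prph is a choosing gene. Over 474 neurons and 2451 genes, each cell drawn once to 5000 UMIs, Gata3 had Spearman's rho of 0.472 with Hip1 and 0.3025 with Prph, and of -0.414 with Ppp1r14a and -0.341 with Lypd1. Lypd1 had its highest rho with Cdk14 (0.476) and Pyy (0.453). Pvalb had its highest with Spp1 (osteopontin, 0.545), Atp1b1 (0.509) and Nefh (0.4235) and its lowest with the ribosomal gene Rplp0 (-0.364). The cells share 1 library and its free RNA, and these values are descriptions.

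**Figure D4:**
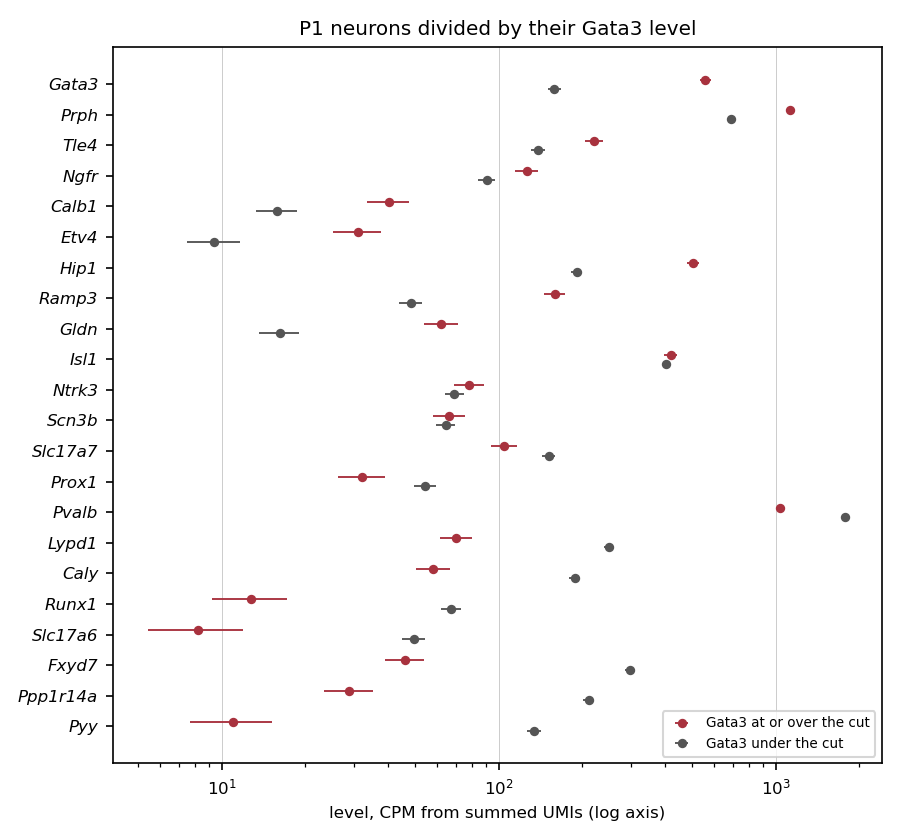
Level in CPM (log axis) of 22 genes in the 124 P1 neurons with the highest Gata3 level (red) and the 371 below (grey), with exact 95% counting intervals. Gata3 itself made the division, Prph lies to the right in red, Isl1 levels overlap, and Lypd1, Runx1, Slc17a6, Fxyd7, Ppp1r14a and Pyy lie to the right in grey.

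A few P1 neurons had another profile, and they were chosen after their values were seen. These 6 cells had at least 10 UMIs in all of Calca, Gal and Adcyap1, genes of peptide-bearing pain and visceral sensory neurons. The lowest of them had 11 such UMIs and the highest of the other 495 neurons had 4. Their median depth was 39268.5 UMIs (6511 to 52108). Tac1, the substance P precursor, was at 3023 against 5.07 CPM in these cells and the other neurons and was found in all 6. The nociceptor genes Scn10a (Nav1.8) and Trpv1 were at 68.4 against 0.327 CPM and 63.5 against 0.164 CPM, from 14 and 13 UMIs in these cells, and Prph was at 4694 against 807 CPM. Gata3, Prox1, Shox2 and Pou4f2 had 0 UMIs, which allows up to 14.7 CPM, against 266, 48.3, 335 and 31.2 CPM in the other neurons. Pvalb was at 122 against 1583 CPM and Isl1 at 107 against 408 CPM. The spiral ganglion factors that marked the other neurons were thus low or not found in these cells.

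Genes of other cell types were also present in the P1 neurons. Their 12 glial genes summed to a median of 32.5 UMIs per 10000 per neuron, against 19.5 in the other barcodes, and 0 of the 10 compared were 4-fold apart. Pmp22, a myelin protein of Schwann cells, was at 957 against 721 CPM, with 5456 CPM in glia. Of 501 neurons, 95 had at least 50 glial UMIs per 10000, 56 at least 20 of mesenchyme genes and 75 at least 5 of proliferation genes, in all 201. Scrublet marked 39 of the 501 as doublets (7.78%), against 636 of all 13162 kept P1 barcodes (4.83%). Without the 201 neurons, a setting added after the data were seen, 352 genes were 4-fold higher and 335 of them were among the 340. Beyond these counts, the part of other cells in the results was not tested.

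At P7 the 17 neurons were few and shallow, and 1 of them held much of the material. Its 40804 UMIs and 5923 genes included 376 UMIs of the choosing genes, all 8 of them, and 140 of Stmn3, 119 of Pvalb and 18 of Isl1. The other 16 had between 699 and 17118 UMIs. By descending depth, the 17 barcodes had 140, 28, 33, 15, 8, 14, 16, 5, 4, 4, 1, 1, 1, 8, 0, 1 and 0 UMIs of Stmn3 and 119, 19, 22, 14, 5, 15, 14, 4, 2, 4, 4, 3, 3, 1, 1, 0 and 1 of Pvalb, so Stmn3 was found in 15 of 17 and Pvalb in 16 of 17. In 9 of the 17 the glial genes had more UMIs than the 23 neuronal genes, and 2 had more than 10 UMIs of proliferation genes. A mixture with other cells was not tested in these.

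The deepest P7 neuron held 40804 of the 116958 UMIs behind the following levels. Stmn3 was at 2385 CPM (2114 to 2682), Nefh at 1385 CPM (1180.0 to 1616), Pvalb at 1975 CPM (1729 to 2247) and Isl1 at 308 CPM (216 to 426), and for Isl1 the interval overlaps that of P1. Slc17a7 was at 119.7 CPM (65.4 to 201), with 14 UMIs in 4 of 17 barcodes. Gata3 was at 68.4 CPM (29.5 to 135), below the P1 interval. Leaving out any 1 barcode kept Gata3 between 53.3 and 78.8 CPM and Slc17a7 between 52.5 and 134 CPM. P2rx3 had 1 UMI, and Prox1 and Neurod1 had 0. Pmp22 was at 2770.2 CPM (2477 to 3089), against 2049.9 CPM in the other P7 barcodes.

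At P14 the 11 neurons had between 1170 and 19532 UMIs, and 4 had more than 20% of UMIs on mitochondrial genes. By descending depth they had 77, 37, 36, 19, 3, 2, 30, 14, 5, 3 and 3 UMIs of Stmn3, 96, 76, 17, 34, 3, 30, 5, 5, 13, 5 and 8 of Nefh and 80, 34, 23, 15, 1, 11, 4, 6, 16, 4 and 12 of Pvalb, so each barcode carried all 3. Isl1 was found in 10 of 11, at 436 CPM (300.4 to 613), a level whose interval includes that of P1. In 4 of the 11 the glial genes outnumbered the neuronal ones, and Pmp22 was at 4563 CPM (4094 to 5070.4), with 2413 CPM in the other P14 barcodes.

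Channel genes of the P14 neurons were set beside their P1 levels, and those named were picked from the lists after their values were seen, as were the other genes compared between these stages. At this depth 13 of 30 potassium and HCN channel genes and 6 of 13 sodium channel genes had 0 UMIs at P14. The 4 barcodes above 20% mitochondrial UMIs held 68 of the 127 Slc17a7 UMIs and 33 of the 66 Kcna2 UMIs. In the other 7 barcodes, a setting added after the data were seen, Slc17a7 was at 1121 CPM (853 to 1446), Kcna2 at 627 CPM (432 to 880.4), Scn1a at 361 CPM (217 to 564) and Scn4b at 361 CPM (217 to 564), all above their P1 levels. Beyond that, the part of the mitochondrial share was not tested. Kcna2, a low-threshold potassium channel, had 17, 14, 0, 7, 9, 1, 10, 7, 0, 1 and 0 UMIs in the 11 barcodes, in all 873 CPM (675 to 1110.5), against 20.7 CPM at P1. Without any 1 barcode its level stayed between 784 and 1024 CPM. Its accessory subunit Kcnab1 was at 410.0 CPM (279 to 582) against 28.5 CPM, and Kcnc1 at 344 CPM (225 to 504) against 64.4 CPM. Among sodium channels Scn4b, which speeds reopening, was at 476 CPM (333 to 659) against 7.00 CPM and Scn1a at 569 CPM (412 to 766) against 58.5 CPM. Kcna6 and Scn3a had 0 UMIs, with P1 levels of 66.8 and 52.9 CPM above the limit of 39.7. Scn9a was at 13.2 CPM (0.335 to 73.7) from 1 UMI, against 240.3 CPM.

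Transmission and pump genes were read in the same way. Slc17a7 had 30, 27, 0, 34, 13, 2, 11, 10, 0, 0 and 0 UMIs in the 11 barcodes, in all 1679.6 CPM (1400.2 to 1998) against 138 CPM at P1, and 4 barcodes had none. Cplx1 was at 1217 CPM (981 to 1492) against 298 CPM, Vamp1 at 793 CPM (606 to 1021) against 75.3 CPM and the synapsin Syn1 at 304 CPM (193 to 456) against 43.7 CPM. Atp1b1 was at 7194 CPM (6602 to 7825) against 1293 CPM. Grin1 was at 449.6 CPM (311 to 628) against 60.7 CPM, and Nefh at 3862 CPM (3431 to 4331) against 1080.2 CPM. The complexin Cplx2, at 39.7 CPM (8.18 to 116) against 193 CPM, and Vamp2, at 52.9 CPM (14.4 to 135) against 231 CPM, were lower at P14, so the vesicle genes did not move as 1 group.

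Genes of axon growth gave these pairs of P14 and P1 levels. Gap43 was at 52.9 CPM (14.4 to 135) against 667 CPM at P1, Basp1 at 185 CPM (101 to 311) against 2209 CPM, and Dpysl3 had 0 UMIs against 301 CPM. Without any 1 barcode the P14 level of Basp1 lay between 62.1 and 232 CPM. Of the 4 Gap43 UMIs at P14, 3 lay in 1 barcode. Tubb2b was at 52.9 CPM (14.4 to 135) against 1959 CPM, Tuba1a at 939 CPM (733 to 1184) against 5519.7 CPM, Stmn1 at 225 CPM (131 to 360.0) against 2954 CPM and Dcx at 39.7 CPM (8.18 to 116) against 215 CPM. P2rx3 had 0 UMIs, against 89.0 CPM at P1. Stmn3, at 3028 CPM (2649 to 3447) against 2116 CPM, and Map1a, at 1547 CPM (1279.7 to 1854) against 579 CPM, were higher at P14.

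**Figure D5:**
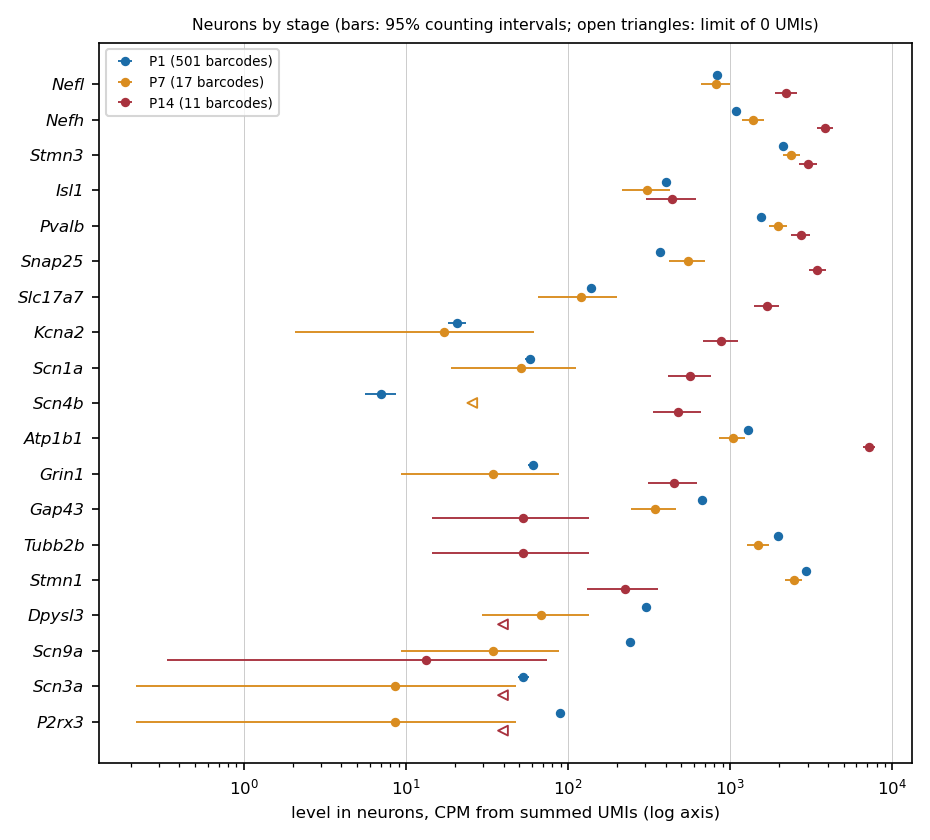
Level in CPM (log axis) of 19 genes in the neurons of P1 (501 barcodes), P7 (17) and P14 (11), with exact 95% counting intervals. Open triangles mark the limit that 0 UMIs allow (25.7 CPM at P7 and 39.7 CPM at P14). For Kcna2, Scn4b and Slc17a7 the P14 point lies right of the P1 point, for Gap43, Tubb2b and Stmn1 it lies left, Isl1 levels overlap, and Nefl and Snap25 are choosing genes.

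The P14 neurons were not uniform. All 12 Gata3 UMIs and 16 of the 27 Prph UMIs lay in 1 barcode of 11176 UMIs, which had 0 UMIs of Slc17a7 and of Kcna2. A further 6 barcodes, between 3566 and 19532 UMIs deep, each had at least 10 UMIs of Slc17a7, at least 7 of Kcna2 and 0 of Gata3. Mitochondrial genes took 22.005%, 24.3%, 24.8% and 23.2% of the UMIs of 4 of these 6, 6.91% and 11.2% of the other two, and 3.89% in the barcode with Gata3. Calb2 had 38 UMIs in 3 barcodes, 28 of them in one where glial genes had 305 UMIs and neuronal genes 39, and 9 in the shallowest. Lypd1 was found in 4 barcodes, at 344 CPM (225 to 504), and Calb1 had 0 UMIs. These are single barcodes, and their values are listed without a grouping being drawn from them.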

How the data were processed

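Rat cochlear tissue of 3 postnatal stages was made into single-cell RNA libraries, 1 for each stage. The authors demultiplexed the reads with bcl2fastq and produced UMI counts per gene and barcode with Cell Ranger 3.1.0, on the rn6 build, and analysed them with Seurat 3.1.1. The deposited values are raw UMI counts (32623 rows of genes), with no normalization. Gene symbols on several rows (1453) were summed, which gave 26976 symbols. 

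Barcodes were kept if they had over 500 genes and if 13 mitochondrial genes took under 25% of their UMIs. Neurons were chosen on 8 genes as the report states. Their members and the gene lists were chosen with earlier results of these data known. Counts were summed over barcodes and given as CPM. Genes with at least 10 CPM in neurons or others were compared as log2 ratios after adding 10 CPM, and a 4-fold ratio was counted (2-fold for the Gata3 division). With 1 library per stage no test was made. Intervals are exact Poisson (CPM) or Clopper-Pearson (shares) at 95%. Named genes were the choosing and marker genes, the 20 with the largest ratio among those with a UMI in at least 25% of P1 neurons, Cib2, and of each list the members highest in neurons, those that mark a subtype or another cell type and those at 0 UMIs. Other genes are said to be picked after their values were seen. Some genes are not reported here. Doublets were marked with Scrublet (scanpy 1.11.5, scikit-image 0.26.0) and kept. At P14 it marked 2 of 5282 barcodes and did not work. Values were computed in Python 3.11.15 (pandas 2.3.3, scipy 1.17.1, numpy 2.4.6), and the comparison was tested on simulated data. Alternatives were other thresholds, pseudocounts and depths.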

Additional observations from a re-analysis of the deposited data

Results flagged for a closer look

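Genes whose direction of neurons against other barcodes differed between P1 and P14 included the 2 described here, and these differences were not tested. They are not all such genes, since Atp1b2, a sodium pump subunit, was at 15.8 against 10.8 CPM at P1. At P14 Atp1b2 was at 39.7 against 321 CPM. Calb2 (calretinin) had a log2 ratio of -1.62 at P1, at 2.90 against 29.8 CPM, and of 4.22 at P14, at 503 against 17.5 CPM. At P14 its 38 UMIs lay in 3 of the 11 barcodes, and without any 1 barcode the level ranged from 143 to 678 CPM. Of these UMIs 28 lay in a barcode with 305 glial and 39 neuronal UMIs. Stmn1 (stathmin) had a log2 ratio of 1.86 at P1, at 2954 against 805 CPM, and of -2.11 at P14, at 225 against 1001 CPM. It had 17 UMIs in 5 of the 11 barcodes, and without any 1 barcode its level lay between 172 and 249.6 CPM.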

How the results depend on the processing

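The share of neurons moved with the rule. At P1 it was 2.34% with a level of 80 per 10000, 1.38% with a mitochondrial limit of 10%, 2.43% among barcodes under 5000 genes and 2.96% without Stmn2 in the rule. At P7 it was 0.292% with a level of 20, 0.0395% with 80, and 0.0869% (11 neurons) both with 10 UMIs in place of 3 and without Stmn2. At P14 it was 0.379% with 20, 0.0757% with 80 and 0.0991% with a mitochondrial limit of 10%. With 1 CPM added in place of 10 CPM, 752 genes were 4-fold higher and 591 lower, including the 340 and 182. The same pseudocount gave list medians (log2) of 5.16 for general neuronal genes, 3.62 for spiral ganglion factors, 4.11 for vesicle, 3.17 for microtubule and motor, 3.56 for sodium channel, 3.26 for potassium channel, 1.26 for glutamate receptor, 0.86 for guidance and 3.74 for peptide genes. Among barcodes under 5000 genes the medians were 2.33 for factors and 3.11 for microtubule and motor genes, and with a level of 80 that of peptide genes was 2.26. Thinned to 2000 UMIs the shares of neurons with a UMI were 35.4% for Gata3, 28.7% for Lypd1, 10.3% for Runx1, 3.54% for Calb1, 23.6% for Slc17a7 and 7.29% for Slc17a6. Without the 201 neurons high in genes of other cells, chosen after seeing the data, Lypd1 was found in 53.2%, and 240 genes were 4-fold lower, including the 182. Of 288 values for 48 named genes under the alternatives, 0 changed direction and 1 crossed the 4-fold limit (Syt1, 1.96 among barcodes under 5000 genes). The 48 leave out many genes given above, such as Cacna1b and Kcna2, which were not put through the alternatives singly. With a level of 80 the other barcodes stayed those of the main rule.

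Depth limits the later stages: 17 P7 and 11 P14 neurons were under the 50 cells required for a count of 4-fold genes between stages, which was not run. Their levels rest on 116958 and 75615 UMIs. No paired analysis was possible because each stage was 1 library.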
